A study of Homo sapiens with 6 samples.

Results

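Chemokines are small secreted proteins that attract leukocytes along a concentration gradient, and 10 of their genes, CXCL1, CXCL2, CXCL3, CXCL5, CXCL8, CXCL10, CXCL11, CXCL14, CCL5 and CCL20, were followed in a tongue cancer cell line in which XBP-1s had been targeted. The members were chosen by gene symbol, with earlier results of these data known. A probe was counted for a gene when its transcript accession belonged to that symbol in RefSeq. The 10 genes had 13 probes, 7 genes with 1 probe and CXCL1, CXCL2 and CXCL10 with 2 each, among 27624 tested probes for 16821 named genes. All 13 probes were well above background on all 6 arrays and all were tested.

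CAL-27 is an established line of squamous carcinoma cells of the human tongue. Total RNA of CAL-27 cells stably carrying a short hairpin RNA against XBP-1s (shXBP-1s, n = 3) was compared with RNA of CAL-27 cells with a control hairpin (shCtrl, n = 3), on 1-colour Agilent arrays labelled with Cy3. XBP-1s is the transcription factor made from spliced XBP1 mRNA when the stress sensor IRE1α is active. The study profiled the knockdown to ask by which route endoplasmic reticulum stress bears on MHC class I at the cell surface. No cytokine or other stimulus is named for either group, and whether a group was 1 clone or 1 transduced population, or its replicates separate cultures, is not given in the sources used here, so the p-values measure only the spread between these samples. The single XBP1 probe gave signals of 2536 to 2766 in shCtrl and of 551.0 to 695.4 in shXBP-1s, a log2 change of -2.39 (SE 0.0408, adjusted p = 2.81e-07, limma). This probe was counted for XBP1 as a gene. No probe sequence was used here, so whether it separates the spliced form was not tested.

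Carcinoma cells are themselves a source of chemokines. CXCL1, CXCL2, CXCL3, CXCL5 and CXCL8 act through CXCR2, and CXCL8 also through CXCR1, and they are known for drawing neutrophils into inflamed epithelium and tumours. CXCL10 and CXCL11 bind CXCR3, which is carried by activated T cells and natural killer cells, while CCL5 attracts T cells and monocytes, CCL20 attracts CCR6-bearing cells, and CXCL14 is made by resting epithelium. Genes of the first group are classical targets of NF-κB, and CXCL10, CXCL11 and CCL5 are induced by interferons as well as by NF-κB.

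The upstream sequences are shown because these genes share a short motif although their transcripts moved in different directions. RefSeq promoter sequence of GRCh38.p14 was held for 9 of the 10 genes, all but CCL5. In the 250 bases before the transcript start the NF-κB motif GGNNTTTCC, searched on both strands, was found in 8 of these 9 genes, all but CXCL14, against 5.48% of 35116 promoters of the same length. Capitals mark the matches in the sequences below, each written 5′ to 3′ on the strand of its gene and ending at the base before the start.

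CXCL8, chr4:73740319-73740568, plus strand: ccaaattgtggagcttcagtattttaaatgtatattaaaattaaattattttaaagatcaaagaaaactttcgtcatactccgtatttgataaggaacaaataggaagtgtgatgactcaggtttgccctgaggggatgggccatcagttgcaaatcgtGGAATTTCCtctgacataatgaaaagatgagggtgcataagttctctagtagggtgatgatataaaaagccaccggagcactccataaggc
CXCL1, chr4:73869143-73869392, plus strand: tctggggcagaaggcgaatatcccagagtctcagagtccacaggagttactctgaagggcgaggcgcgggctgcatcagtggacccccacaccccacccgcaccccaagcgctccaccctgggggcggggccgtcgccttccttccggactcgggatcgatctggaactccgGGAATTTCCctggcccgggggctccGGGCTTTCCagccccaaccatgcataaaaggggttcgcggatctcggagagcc
CXCL2, chr4:74099196-74099445, minus strand: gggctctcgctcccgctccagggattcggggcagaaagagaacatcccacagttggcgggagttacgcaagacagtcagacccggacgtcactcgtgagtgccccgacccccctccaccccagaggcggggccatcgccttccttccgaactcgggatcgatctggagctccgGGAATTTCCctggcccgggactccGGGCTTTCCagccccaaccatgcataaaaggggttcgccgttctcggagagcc
CXCL3, chr4:74038690-74038939, minus strand: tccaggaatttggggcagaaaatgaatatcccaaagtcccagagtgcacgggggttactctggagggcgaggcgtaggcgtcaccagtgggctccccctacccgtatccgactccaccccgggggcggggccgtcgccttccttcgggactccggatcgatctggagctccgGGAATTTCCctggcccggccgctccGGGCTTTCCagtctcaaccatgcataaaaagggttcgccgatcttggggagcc
CXCL10, chr4:76023498-76023747, minus strand: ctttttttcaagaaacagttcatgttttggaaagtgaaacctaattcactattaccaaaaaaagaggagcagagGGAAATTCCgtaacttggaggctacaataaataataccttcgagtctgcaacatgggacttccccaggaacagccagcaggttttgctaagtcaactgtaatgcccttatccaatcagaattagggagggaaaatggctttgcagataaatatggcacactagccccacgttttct
CXCL11, chr4:76036071-76036320, minus strand: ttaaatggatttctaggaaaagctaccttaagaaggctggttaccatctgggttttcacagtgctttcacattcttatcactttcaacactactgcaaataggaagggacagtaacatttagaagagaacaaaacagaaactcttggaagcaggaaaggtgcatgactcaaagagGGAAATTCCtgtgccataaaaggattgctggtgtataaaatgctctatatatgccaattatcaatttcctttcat

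CXCL1, CXCL2 and CXCL3 each held 2 matches, and the nearer of them began 53 bases upstream in all 3 genes. The match in CXCL8 began 91 bases upstream and in CXCL5 90 bases. It lay on the other strand in CXCL10, 176 to 168 bases upstream, in CXCL11, 75 to 67, and in CCL20, 79 to 71. Aligned end to end, the upstream sequences of CXCL1 and CXCL3 were 81.4% identical, those of CXCL1 and CXCL2 70.1%, and those of CXCL10 and CXCL11 49.7%. A letter pattern for AP-1, TGANTCA, was found upstream of CXCL8, CXCL11 and CXCL14 and in 6.57% of all promoters. An interferon element-like pattern, GAAANNGAA, was found upstream of CXCL2, CXCL3 and CXCL10 and in 6.88% of all promoters. The letters TGACGTG, found in elements that XBP-1s is known to bind, were in 1.68% of all promoters and CACGTG in 6.34%, and neither was found in these windows of the 9 genes. Matches of different motifs did not overlap in these genes. They describe letters and say nothing of binding.

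The arrays had similar quality. Between 82.1% and 84.8% of spots were well above background and none was saturated, while the 75th percentile ran from 687.4 to 761.3 in shCtrl and from 792.0 to 983.4 in shXBP-1s. Levels are given below as the log2 of the signal minus that percentile of the same array, a scale on which 0 is the 75th percentile. A level of 1 probe cannot be set against that of another, so only differences of the same probe between arrays are compared. Arrays that shared a scan time were taken as 1 slide, so the slides below are inferred from scan times. By this rule shCtrl replicates 2 and 3 were on slide 1, and shCtrl replicate 1 was on slide 2 with the 3 shXBP-1s arrays. Of 7 epithelial markers all were well above background on all arrays. The summed level of the 5 haematopoietic markers with a probe, relative to the 75th percentile and on a linear scale, was 4.54 to 6.42 in shCtrl and 3.21 to 3.50 in shXBP-1s. PTPRC, the general leukocyte marker, had 4 probes. The 2 tested ones gave log2 changes of 0.05 (adjusted p = 0.722) and 0.40 (adjusted p = 0.038), and of the other 2, both untested and dim, 1 was well above background on no array and 1 on 2 shCtrl arrays. CD14, a monocyte marker, had a log2 change of -0.84 (adjusted p = 0.0011), and LYZ had no probe here. The part of other cell types in the chemokine signals was not tested.

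CXCL8, CXCL11 and CCL5 rose in the shXBP-1s cells, by 2.38-fold, 2.54-fold and 2.78-fold, and no member fell by as much as 2-fold. With limma's Benjamini-Hochberg adjusted p under 0.05 and a change of 2-fold or more, 3 of the 13 member probes were called (23.1%), all higher, beside 4.9% of all tested probes, of which 2.29% were higher and 2.61% lower. By the adjusted p alone 8 of the 13 passed, 5 higher and 3 lower (61.5%), beside 41.7% of all tested probes, 18.4% higher and 23.3% lower. The same 8 probes did not overlap between the groups, beside 52.4% of all tested probes. Taking the brightest probe of each gene, the median log2 change was 0.24 over the 10 members and -0.04 over all 16821 genes. Since the members were chosen with earlier results known, these shares and medians are descriptions, with no test of the set. RNA of whole cultures was measured, so more transcript per cell and more cells with the transcript cannot be told apart.

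**Figure D1:**
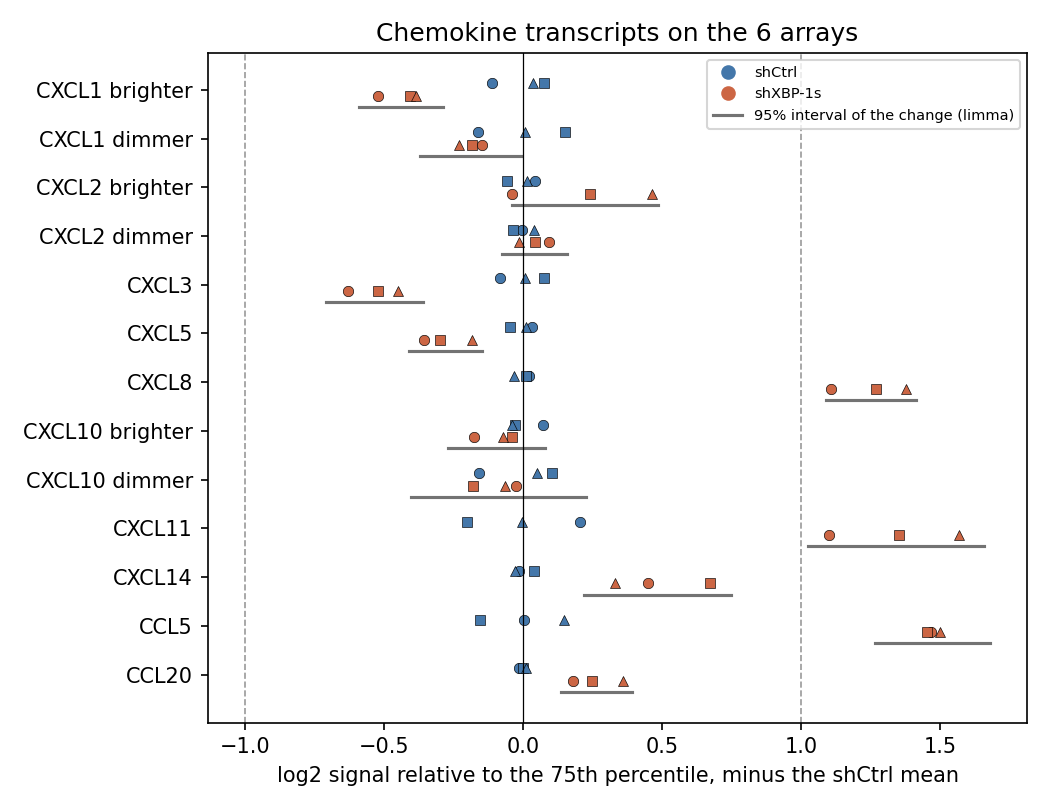
Each row is 1 probe of a member gene, and each point 1 array, plotted as its scaled log2 level minus the mean of the 3 shCtrl arrays (circle, square and triangle are replicates 1, 2 and 3). Grey bars give the 95% interval of the change and dashed lines mark 2-fold. CXCL8, CXCL11 and CCL5 lie beyond 2-fold on every shXBP-1s array, while CXCL1 (brighter probe), CXCL3 and CXCL5 lie to the left of 0.

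Among the neutrophil-attracting ligands CXCL8 was the one that rose. CXCL8 encodes interleukin-8, the principal neutrophil chemoattractant of human epithelium. Its log2 level was 2.65, 2.64 and 2.60 on shCtrl arrays 1, 2 and 3 and 3.74, 3.90 and 4.01 on shXBP-1s arrays 1, 2 and 3. The lowest shXBP-1s array thus stood clear of the highest shCtrl array, and the shCtrl arrays lay within a narrow range. The log2 change was 1.25 (SE 0.0697, 95% interval 1.09 to 1.41, adjusted p = 7.20e-06, limma), and 2.75% of the tested probes changed by more in either direction. The difference was already present in the signal before any scaling between arrays, 4326 to 4754 in shCtrl and 12769 to 13387 in shXBP-1s. CXCL8 was called under all 18 alternatives, with a log2 change between 1.19 and 1.36.

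CXCL3, a close relative of CXCL1, was lower in the shXBP-1s cells, by less than 2-fold. Its log2 level was -2.53, -2.38 and -2.45 in shCtrl and -3.08, -2.97 and -2.90 in shXBP-1s. All 3 shXBP-1s arrays lay below all 3 shCtrl arrays, and this was also so before scaling, with signals of 118.6 to 146.7 in shCtrl and 106.0 to 116.2 in shXBP-1s. The log2 change was -0.53 (SE 0.0754, adjusted p = 7.89e-04, limma), which left 69.1% of the shCtrl level.

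CXCL1, the melanoma growth-stimulating chemokine, was read by 2 probes. By the brighter one its log2 level was 3.72, 3.90 and 3.87 in shCtrl and 3.31, 3.42 and 3.45 in shXBP-1s. The groups did not overlap, and the log2 change was -0.44 (SE 0.0647, adjusted p = 9.84e-04, limma). By the dimmer probe the levels were -0.13, 0.19 and 0.04 in shCtrl and -0.11, -0.15 and -0.20 in shXBP-1s, which overlap, and the log2 change of -0.19 had an adjusted p of 0.0932 (limma). Blocking on the slide gave -0.03 (adjusted p = 0.84), and the change was -0.27 without shCtrl replicate 1 and -0.11 without shCtrl replicate 2. CXCL5, which epithelial cells release with CXCL8, had log2 levels of 0.32, 0.24 and 0.30 in shCtrl and -0.07, -0.01 and 0.10 in shXBP-1s, without overlap. Its log2 change was -0.28 (SE 0.0567, adjusted p = 0.00514, limma). Before scaling, the signals of CXCL1 (brighter probe) were 9057 to 11401 in shCtrl and 8626 to 9731 in shXBP-1s, and those of CXCL5 857.2 to 927.4 and 848.7 to 936.2, so both genes overlapped there and their lower level rests on the scaling between arrays. Under the normexp background model the median change of all probes was -0.41, and relative to it CXCL1 (brighter probe) stood at 0.09 and CXCL5 at 0.17, a turn of direction, whereas CXCL3 stood at -0.32. Before that median is taken off, the normexp values were -0.33 for CXCL1 (brighter probe, adjusted p = 0.0412, limma) and -0.25 for CXCL5 (adjusted p = 0.0532). With quantile normalization added, where the median of all probes was near 0, CXCL1 (brighter probe) had -0.42 (adjusted p = 6.79e-04) and CXCL5 -0.23 (adjusted p = 0.0121).

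CXCL2, whose protein is a near relative of those of CXCL1 and CXCL3, did not pass the test by either probe. Its brighter probe had log2 levels of 1.76, 1.66 and 1.73 in shCtrl and 1.68, 1.96 and 2.19 in shXBP-1s. The shXBP-1s arrays were spread more widely than those of any other member probe (SD 0.253), and array 1 lay inside the shCtrl range. The log2 change was 0.22 (95% interval -0.04 to 0.49, adjusted p = 0.155, limma). The dimmer probe gave 0.04 (95% interval -0.08 to 0.16, adjusted p = 0.547). The brighter probe had an adjusted p below 0.05 in 2 of 17 alternatives, under normexp and without shXBP-1s replicate 1, where its log2 change was 0.33 and 0.35, and without shXBP-1s replicate 3 the change was 0.10. Transcripts of CXCL1, CXCL2 and CXCL3 resemble each other, and no probe sequence was used here, so how far a probe of 1 of them reads another was not tested.

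**Figure D2:**
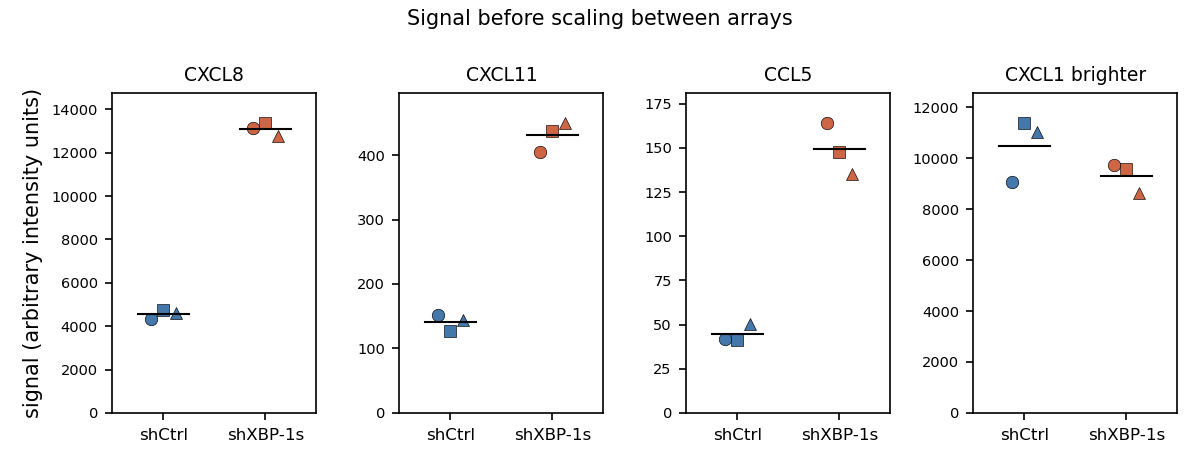
Signal of 4 probes in arbitrary intensity units, as the scanner software gave it, before scaling between arrays; points are arrays (circle, square and triangle are replicates 1, 2 and 3), horizontal lines the group means, and each axis starts at 0. CXCL8, CXCL11 and CCL5 are separated by group, and the brighter CXCL1 probe overlaps.

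Ratios of 2 probes of the same array do not depend on the scaling between arrays. In the RefSeq order of protein-coding genes on chromosome 4, CXCL8, CXCL6, PF4V1, CXCL1, PF4, PPBP, CXCL5, CXCL3 and CXCL2 follow each other, and a second stretch holds CXCL9, ART3, CXCL10 and CXCL11. The log2 ratio of CXCL8 to CXCL1 was -1.07, -1.26 and -1.26 on the shCtrl arrays and 0.43, 0.48 and 0.57 on the shXBP-1s arrays, a 3.23-fold shift. The ratio of CXCL2 to CXCL1 shifted by 0.66 on the log2 scale and that of CXCL2 to CXCL3 by 0.76, and for neither did the groups overlap. In the second stretch the log2 ratio of CXCL11 to CXCL10 was 1.07, 0.76 and 0.97 in shCtrl and 2.21, 2.33 and 2.58 in shXBP-1s, a 2.71-fold shift. In both stretches genes of the same stretch thus differed in their change. These ratios use the brightest probe of each gene and were chosen with the changes known, so they are given with no test.

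**Figure D3:**
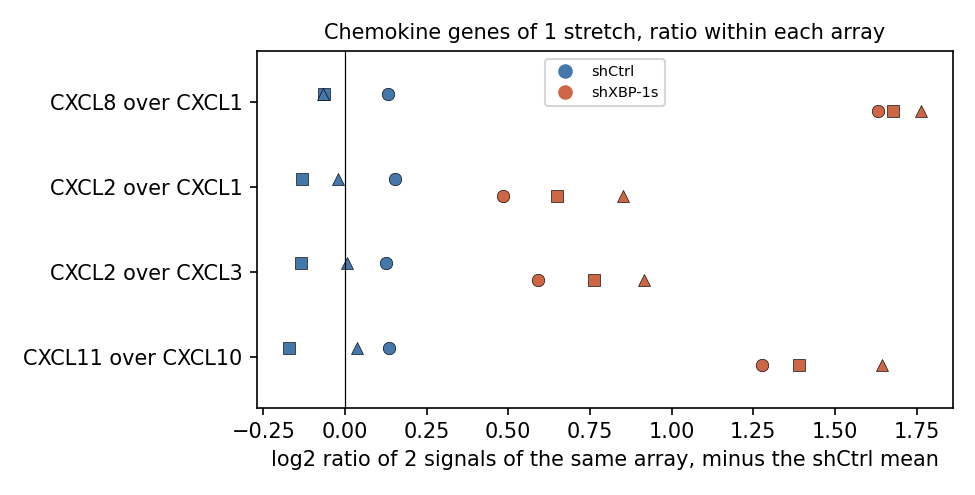
Log2 ratio of the signals of 2 chemokine genes on the same array, minus the mean of the 3 shCtrl arrays; points are arrays and circle, square and triangle are replicates 1, 2 and 3. In all 4 ratios the shXBP-1s arrays lie to the right of the shCtrl arrays, by 1.69 on the log2 scale for CXCL8 over CXCL1 and by 1.44 for CXCL11 over CXCL10.

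Of the CXCR3 ligands, CXCL11 rose and CXCL10 did not pass the test. Both proteins attract activated T cells, and CXCL11 binds the receptor most tightly. The log2 level of CXCL11 was -2.18, -2.59 and -2.39 in shCtrl and -1.28, -1.03 and -0.81 in shXBP-1s. The groups were well apart although both were spread more than for CXCL8. The log2 change was 1.34 (SE 0.137, 95% interval 1.02 to 1.66, adjusted p = 1.39e-04, limma), and the signal before scaling was 126.7 to 151.9 in shCtrl and 404.3 to 450.4 in shXBP-1s. The brighter CXCL10 probe had log2 levels of -3.25, -3.35 and -3.36 in shCtrl and -3.49, -3.36 and -3.39 in shXBP-1s, which overlap. Its log2 change was -0.09 (95% interval -0.27 to 0.08, adjusted p = 0.354, limma), an interval that lies far below the change of CXCL11. The dimmer CXCL10 probe gave -0.09 as well (95% interval -0.40 to 0.23, adjusted p = 0.638). CXCL9, the remaining ligand of this receptor, had a probe but was not above background often enough to be tested.

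CCL5, also called RANTES, which draws T cells, monocytes and eosinophils, had the largest change of the 10 genes in this fit. Its log2 level was -4.04, -4.20 and -3.90 in shCtrl and -2.58, -2.60 and -2.55 in shXBP-1s. The 3 shXBP-1s arrays lay within 0.05 of each other and more than 1 log2 unit above every shCtrl array. The log2 change was 1.47 (SE 0.0897, 95% interval 1.27 to 1.68, adjusted p = 1.04e-05, limma). The signals were dim, 41.3 to 50.5 in shCtrl and 135.2 to 164.3 in shXBP-1s. CXCL11 and CCL5 were called in 16 of 18 alternatives. Both lost the call under normexp, with log2 changes of 0.72 for CXCL11 (adjusted p = 0.00191, limma) and 0.12 for CCL5 (adjusted p = 0.836). These changes stood 1.14 and 0.53 above the median of all probes. Both also lost it under normexp with quantile normalization, with 0.97 and 0.67 (adjusted p = 9.64e-05 and 1.88e-05, limma).

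CCL20, the only known chemokine ligand of CCR6, was slightly higher in the shXBP-1s cells. Its log2 level was 0.11, 0.12 and 0.14 in shCtrl and 0.30, 0.37 and 0.48 in shXBP-1s. The groups did not overlap, and the log2 change was 0.26, 1.20-fold (SE 0.0551, adjusted p = 0.00595, limma). CXCL14, a chemokine of unstimulated epithelium, had log2 levels of -4.84, -4.78 and -4.85 in shCtrl and -4.38, -4.15 and -4.49 in shXBP-1s, again without overlap. Its log2 change was 0.48 (SE 0.114, adjusted p = 0.0105, limma), with signals of only 24.0 to 27.6 in shCtrl and 35.2 to 50.3 in shXBP-1s. The direction of CXCL14 turned under normexp (-0.53, and -0.12 relative to the median of all probes), and its adjusted p rose to 0.0535 when the slide was a block and to 0.0503 without shXBP-1s replicate 2.

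With the slide as a block, which compares the shXBP-1s arrays with the shCtrl array of their own slide, the log2 changes of the called genes were 1.23 for CXCL8, 1.14 for CXCL11 and 1.47 for CCL5, and all 3 were still called. The changes of CXCL1 (brighter probe), CXCL3 and CXCL5 were -0.33, -0.45 and -0.31 in that fit, each with an adjusted p below 0.05. An exact permutation test of 1 probe over 3 arrays against 3 cannot give a p below 0.1, and this was the p of each of the 8 probes whose groups did not overlap.

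**Figure D4:**
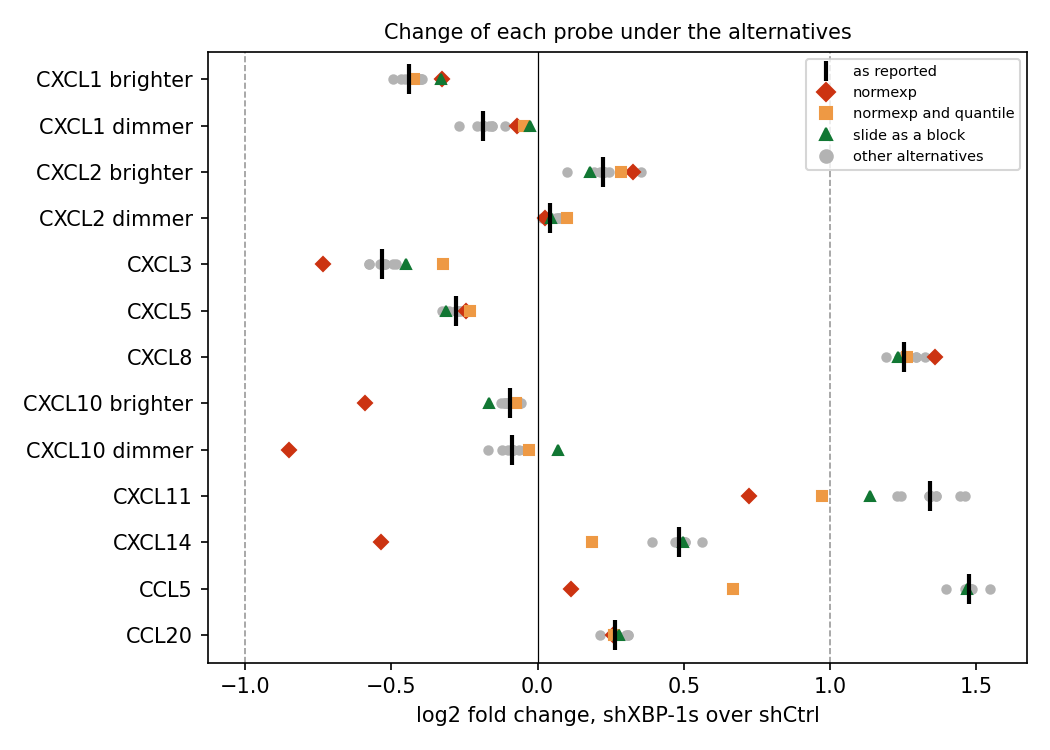
Log2 fold change of each member probe, shXBP-1s over shCtrl, as reported (black bar) and under the alternatives (grey points, with normexp background correction, normexp with quantile normalization and the slide as a block marked). Dashed lines mark 2-fold. CXCL8 stays beyond 2-fold under each of them, and the normexp values of CCL5, CXCL14 and CXCL10 lie far from the others.

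The other chemokine ligands were called at a share near that of all probes. Of 33 further ligand genes 21 were tested, by 26 probes, and 0 were called higher and 1 lower by limma (3.85% of the probes, beside 4.9% of all tested probes), while 7 passed the adjusted p alone, 4 higher and 3 lower, where the share over all tested probes was 41.7%. The called gene was CCL25, a chemokine of thymus and small intestine, with a log2 change of -1.18 (adjusted p = 9.14e-05, limma), and it lost the call under normexp with quantile normalization (-0.36) and under normexp alone (-1.12). The other probes that passed the adjusted p alone, named after their values were seen, were CCL28 (0.69), CCL27 (0.52), CXCL16 (0.41) and CCL24 (0.24), which were higher, and CCL2 (-0.89) and XCL1 (-0.21), which were lower. CCL27 and CCL28 are epithelial chemokines that share the receptor CCR10, and CCL2 is the main attractant of monocytes. CCL16, picked with CCL24, CXCL16 and XCL1 for its brightness, had -0.22 (adjusted p = 0.071). CXCL6, the neighbour of CXCL8, was not tested for low signal.

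Of 23 chemokine receptor genes 14 were tested, by 16 probes, of which 6.25% were called, beside 4.9% of all tested probes. ACKR3, an atypical receptor that takes up CXCL11 and CXCL12, rose by 1.32 on the log2 scale (SE 0.107, adjusted p = 4.37e-05, limma) and was the only receptor called. It lost the call under normexp (0.38) and under normexp with quantile normalization (0.80). By the adjusted p alone 1 receptor probe was higher and 5 lower, where the share over all tested probes was 41.7%. Among the receptors for the members, CXCR2 had a log2 change of -0.72 (adjusted p = 7.59e-04) and CCR6 of 0.03 (adjusted p = 0.735), and these genes were chosen for their ligands. CXCR3 had 2 probes that disagreed, with -0.03 (adjusted p = 0.855) and -0.59 (adjusted p = 0.00291).

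Of 18 genes of the NF-κB system 17 were tested, by 19 probes. Of these probes 0 were called higher and 1 lower (5.26%, beside 4.9% of all tested probes). By the adjusted p alone 6 were higher and 6 lower, where the share over all tested probes was 41.7%. NFKBIA, which encodes the inhibitor IκBα, fell by 1.03 on the log2 scale (SE 0.0706, adjusted p = 1.84e-05, limma). This change lies at the limit of 2-fold, and it was called in 11 of 18 alternatives, with log2 changes between -1.08 and -0.91, and not, among others, when shCtrl replicate 2 or shXBP-1s replicate 1 was left out. The other lower probes were those of CYLD (-0.98), NFKBIZ (-0.96), MAP3K14 (-0.91), BCL3 (-0.79) and IKBKB (-0.74), and the higher ones those of TRAF6 (0.61), RELA (0.38 and 0.32 by 2 probes), NFKB1 (0.33), RELB (0.29) and NFKBIB (0.26), named after their values were seen. CYLD removes activating ubiquitin chains, MAP3K14 and IKBKB are kinases that activate the pathway, and RELA and NFKB1 are the subunits of the classical dimer. TNFAIP3, the A20 inhibitor that NF-κB induces, had 0.18 (adjusted p = 0.0893).

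Cytokines that induce these chemokines, with their receptors, were tested for 25 of 26 genes by 34 probes. Of these probes 2 were called higher and 2 lower (11.8%, beside 4.9% of all tested probes). IL36G, an interleukin-1 family cytokine of epithelium, rose by 2.07 on the log2 scale (SE 0.0727, adjusted p = 1.66e-06, limma). IL1RN, the interleukin-1 receptor antagonist, rose by 1.95 by 1 of its 2 probes (adjusted p = 1.31e-05, limma), and the other probe gave 0.53. TNF, the tumour necrosis factor, fell with a log2 change of -1.13 (adjusted p = 7.43e-06) and IL17C, an epithelial interleukin-17, with one of -2.65 (adjusted p = 6.26e-06). IL36G was not called under normexp (0.77) and TNF neither there (-0.93) nor with quantile normalization added (-0.81), while IL1RN and IL17C were called under all 18 alternatives. By the adjusted p alone 11 probes of this list were higher and 8 lower, where the share over all tested probes was 41.7%.

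Of 22 genes that induce or carry the interferon response, with 30 probes, 0 were called higher and 1 lower (3.33%, beside 4.9% of all tested probes). By the adjusted p alone 4 were higher and 10 lower, where the share over all tested probes was 41.7%. RIGI, the sensor of viral RNA, fell by 1.20 on the log2 scale by 1 probe (adjusted p = 2.51e-05, limma), while its other probe gave -0.09 (adjusted p = 0.464). The call was lost under normexp with quantile normalization (-0.98). IRF1, a transcription factor that interferon induces, had -0.71 (adjusted p = 5.46e-04) and was named after its value was seen. IFNB1, the interferon beta gene, had 0.54 (adjusted p = 0.107).

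The list of further secreted or surface products that NF-κB or interleukin-17 induces along with chemokines held 20 genes, with 25 probes. Of these probes 2 were called higher and 5 lower (28%, beside 4.9% of all tested probes). By the adjusted p alone 7 were higher and 9 lower, where the share over all tested probes was 41.7%. IL20, a cytokine that acts on keratinocytes, rose by 2.91 on the log2 scale (SE 0.133, adjusted p = 3.67e-06, limma) and CSF2, the granulocyte-macrophage growth factor, by 1.14 (adjusted p = 1.13e-05). CSF3, the neutrophil growth factor, fell by 1.89 on the log2 scale by 1 probe (adjusted p = 2.12e-04) and its other probe gave -0.51 (adjusted p = 0.18). The acute phase genes SAA1 and SAA2 and the TNF-induced gene TNFAIP2 also fell, with log2 changes of -1.28 for SAA1, -1.75 and -1.11 for the 2 probes of SAA2, and -1.54 for TNFAIP2. IL6 had a log2 change of 0.16 (adjusted p = 0.156) and ICAM1 of -0.01 (adjusted p = 0.867). SAA1 and SAA2 are near-identical copies, so their probes may not tell them apart. The SAA2 probe with the smaller change lost the call with the slide as a block (-0.96) and under both normexp settings (-0.99 in each). IL20 lost the call under normexp (0.70), and CSF2 (0.73) and CSF3 (-1.25) lost it under normexp and, with 0.93 and -0.47, when quantile normalization was added. Over the 6 lists 15 of 150 probes were called (10.0%, beside 4.9% of all tested probes), 5 higher and 10 lower.

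**Figure D5:**
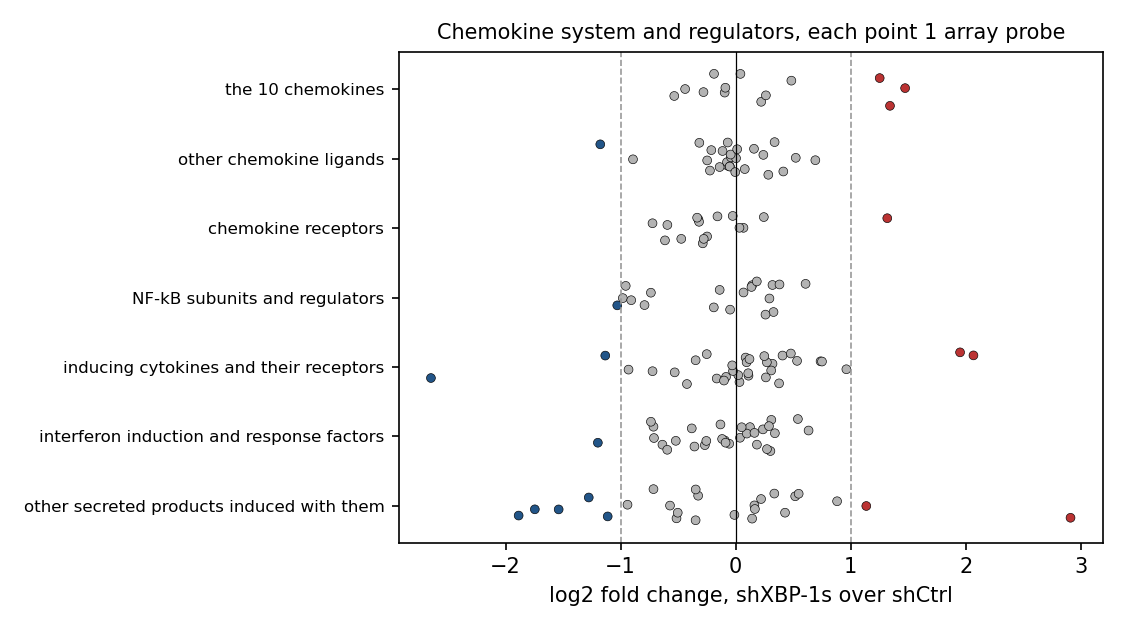
Log2 fold change, shXBP-1s over shCtrl, of every tested probe of the 10 chemokines and of the 6 lists of related genes; each point is 1 probe, red points were called higher and blue points lower, grey points were not called, and dashed lines mark 2-fold. The called probes number 3 higher among the 10 chemokines and 5 higher and 10 lower over the other lists.

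Of the 7 epithelial markers, 1 probe each, 3 were called, all higher (42.9%, beside 4.9% of all tested probes). By the adjusted p alone 5 passed, all higher, where the share over all tested probes was 41.7%, with 18.4% higher. The called ones were KRT14, KRT17 and KRT5, keratins of basal epithelium, with log2 changes of 1.58, 1.53 and 1.43. EPCAM (0.01, adjusted p = 0.881) and CDH1 (0.13, adjusted p = 0.143), general epithelial adhesion genes, did not pass, and the summed level of the 7 epithelial markers, relative to the 75th percentile and on a linear scale, was 101 to 108 in shCtrl and 134 to 158 in shXBP-1s. Their part in the chemokine changes was not tested. Fibroblast markers summed to 0.945 to 1.04 in shCtrl and 0.608 to 0.631 in shXBP-1s, with LUM called higher (1.94), PDGFRB lower (-1.28) and COL3A1 never above background. These calls were 50% of the 4 tested fibroblast probes, beside 4.9% of all tested probes. LUM lost the call under normexp (0.34) and under normexp with quantile normalization (0.91), while PDGFRB was called under all 18 alternatives. Endothelial markers summed to 0.215 to 0.275 and 0.260 to 0.277.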

How the data were processed

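Transcripts of CAL-27 cells were measured, in 3 shCtrl and 3 shXBP-1s samples, 1 array each, grouped by the transfection label. The authors deposited scanner tables from Agilent Feature Extraction 11.0.1.1, whose processed signal is an intensity after background subtraction and is not scaled between arrays. A second deposited table holds log2 values with equal medians (6.277) on all arrays; RMA is named in the submitters' processing notes. That table served only as an alternative. The study's methods give no array normalization, and the labels describe a NimbleGen labelling procedure.

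The log2 of the signal minus the 75th percentile of its array was used. Control spots and flagged spots (230 to 377 an array) were left out and the spots of a probe averaged. Of 34127 probes, 27624 entered the test, each well above background throughout 1 group or both. limma 3.58.1 in R 4.3.3 was used (lmFit, eBayes with trend), 2-sided, with Benjamini-Hochberg adjustment over all of them. Calls needed an adjusted p under 0.05 and a change of 2-fold or more. The fit was checked on simulated data. Accessions matched RefSeq (GRCh38.p14) for 25771 probes. The array annotation names hg19, so only coordinates of the RefSeq promoters are given.

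Named were all members, XBP1, the called genes of each list (up to 6 by smallest p) and the 4 brightest other ligands. The members and lists were chosen with earlier results of these data known. Alternatives were median scaling, quantile normalization, normexp (offset 50, on the median spot signal, since the files used here hold no mean signal), both together, the deposited table, stricter and no filtering of dim probes, no variance trend, the methods' t-test, slide or replicate number as a block, probe means and leaving out each array. Promoters were aligned with Biopython 1.88. The number of arrays limits the precision.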

Additional observations from a re-analysis of the deposited data

How the results depend on the processing

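The 3 calls among the member probes were made under all alternatives except normexp and normexp with quantile normalization, where 1 was left (CXCL8), and without the minimum fold, where 8 passed. Leaving out each array kept 3 member calls. The median log2 change of the member genes was -0.0652 under normexp, against a median of -0.41 over all probes in that setting, and 0.16 to 0.33 when 1 array was left out. The dimmer CXCL10 probe turned to 0.0696 with the slide as a block and CXCL14 to -0.53 under normexp. The calls over all probes numbered 473 under normexp, 357 under normexp with quantile normalization, 11516 without the minimum fold and 1253 to 1695 when 1 array was left out, against 1354. In the other lists 8 probes were called under each normexp setting, 74 without the minimum fold and 14 to 19 without 1 array, against 15. The split of calls over all probes was 159 higher and 314 lower under normexp, against 632 and 722. CXCL3 and CXCL5 had adjusted p values of 0.164 and 0.0532 under normexp (limma). Why normexp moved the dim probes was not tested.

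The replicate numbers did not pair the samples: deviations of arrays with the same number correlated at -0.0158, 0.117 and -0.1161 across probes. With the replicate block 1381 probes were called, the 3 member calls stood and no further member was called.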
